A study of Homo sapiens with 8 samples.

Results

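Acetylation of histone H3 at lysine 9 (H3K9ac) appeared in butyrate-treated KGN cells at 61089 places that had no H3K9ac peak in untreated cells, and 6683 of these lay on sites where untreated cells already carried a peak of histone H4 acetylated at lysine 16 (H4K16ac). These 6683 regions, called members here, are described below. A member is a merged H3K9ac peak of the butyrate library that shares no base with any control H3K9ac peak and at least 1 bp with a control H4K16ac peak. The 6683 are drawn from 79356 butyrate H3K9ac peaks, of which 77% were gained by this rule, and they make up 10.9% (95% interval 10.7 to 11.2) of the gained peaks. Members were chosen by the listed H3K9ac peaks of both conditions and the control H4K16ac peaks, so these counts are descriptions. The other 54406 gained peaks, off control H4K16ac sites, serve as the comparison, matched on location in a gene body.

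KGN is an established human line from an ovarian granulosa cell tumour. The cells were either left untreated (control) or given 1 mM butyrate, a short-chain fatty acid made by gut bacteria that inhibits class I and II histone deacetylases, for 6 h, both in medium with fetal bovine serum. Chromatin immunoprecipitation and sequencing (ChIP-seq) gave 1 library per condition for H3K9ac, for H4K16ac, for a nonspecific immunoglobulin (IgG) and for input chromatin. The series has 8 samples, and the peak lists of 6 were analysed. With 1 library per antibody and condition, and a single cell line, no difference between conditions can be tested and no p-value is given. Exact (Clopper-Pearson) 95% intervals follow shares in parentheses and cover only the counting of peaks.

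H3K9ac is written by acetyltransferases such as KAT2A and KAT2B and is best known at promoters that are in use. H4K16ac is written mainly by KAT8 (MOF) in the MSL and NSL complexes. It loosens contacts between neighbouring nucleosomes, spreads over the bodies of transcribed genes as well as their starts, and is removed by sirtuins and by class I deacetylases. Sites with H4K16ac usually lie in open or transcribed chromatin.

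The peak names inside both H4K16ac lists carry the letters k12 rather than a lysine 16, and whether another antibody was used cannot be told from the files. H4K16ac below means the libraries so labelled. The lists differ in their limits. The authors' H3K9ac lists reach a q of 0.05, whereas the largest q in the H4K16ac lists was 0.304 in control and 0.621 with butyrate. Library depth, recovered from the authors' peak values, was 24.3 M fragments for control H3K9ac, 29.4 M for butyrate H3K9ac and 17.4 M for control H4K16ac. It could not be recovered for butyrate H4K16ac. By this estimate, which is not a count of reads, the butyrate H3K9ac list came from the deeper library. The lowest −log10 p in the control list was 3.46. Below it lay 631 members (9.44%) and 12.2% (11.9 to 12.5) of the gained peaks off H4K16ac. A peak of that strength would not have been listed in control. None of the 6683 members touched any of the 5 control or 2 butyrate IgG peaks (upper limit 0.0552% for each). At the promoters of 25 genes of granulosa identity, 11 carried control H3K9ac, among them FOXL2, INHA, INHBB and GATA6. This is a lower share than the 57.1% (56.4 to 57.8) over all genes with a known start. Among markers of other cell types, control H3K9ac was at the promoters of 3 of 15 neuronal, 2 of 10 epithelial, 2 of 9 theca and stroma, 2 of 10 oocyte, 0 of 12 blood and 0 of 8 endothelial genes.

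Few members covered a gene's promoter, but those that did sat on sequence poor in CG dinucleotides, which are dense in CpG island promoters. Of 15812 RefSeq promoters, the 250 bases upstream of the start lay wholly under a member for 24 genes. These 24 windows held a median of 5 CG dinucleotides (quartiles 2.75 to 8.25), against 18 in 286 windows under gained peaks off H4K16ac, 23 in 4174 windows under H3K9ac peaks shared with control, 8 in 7784 windows of promoters with no butyrate H3K9ac, and 17 over all 15812. With 50% of the 250 bases as the minimum, 36 windows under members held a median of 8, and 500 under gained peaks off H4K16ac again 18. In many of the 24 windows, such as those of SLC12A3 and NMB, no base lay under control H4K16ac. There the H4K16ac peak met the member elsewhere. The CG counts thus describe windows under members, not windows on H4K16ac. The sequences below are from RefSeq (GRCh38.p14), 5′ to 3′ on the strand of the gene and ending at the base before the start, with each CG dinucleotide in capitals. The first 4 are the windows that lay wholly under both a member and a control H4K16ac peak, FOXN1 had 245 of 250 bases under H4K16ac, and NMB shows the window richest in CG among the 24.
MR1 (chr1:181033137-181033386, + strand): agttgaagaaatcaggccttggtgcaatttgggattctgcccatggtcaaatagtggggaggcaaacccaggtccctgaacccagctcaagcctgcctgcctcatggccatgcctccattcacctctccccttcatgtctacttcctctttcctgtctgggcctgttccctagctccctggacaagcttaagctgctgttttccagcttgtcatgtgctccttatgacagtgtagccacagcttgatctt
CIDEC (chr3:9880254-9880503, - strand): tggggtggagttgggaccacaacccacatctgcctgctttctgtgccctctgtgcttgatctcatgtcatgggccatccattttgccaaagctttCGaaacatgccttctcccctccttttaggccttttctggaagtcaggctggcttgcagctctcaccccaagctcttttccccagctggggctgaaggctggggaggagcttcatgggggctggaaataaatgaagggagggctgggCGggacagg
TRIM16 (chr17:15682952-15683201, - strand): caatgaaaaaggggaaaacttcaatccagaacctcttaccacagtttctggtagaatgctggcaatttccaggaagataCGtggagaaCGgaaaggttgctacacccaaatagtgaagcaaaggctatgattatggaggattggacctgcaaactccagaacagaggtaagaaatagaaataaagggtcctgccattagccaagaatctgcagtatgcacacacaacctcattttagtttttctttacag
ASCL5 (chr1:201127185-201127434, - strand): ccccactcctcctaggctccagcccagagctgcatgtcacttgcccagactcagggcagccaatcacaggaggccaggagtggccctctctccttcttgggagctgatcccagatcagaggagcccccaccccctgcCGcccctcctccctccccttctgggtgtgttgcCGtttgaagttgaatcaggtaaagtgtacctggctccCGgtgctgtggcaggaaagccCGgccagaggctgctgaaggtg
FOXN1 (chr17:28506098-28506347, + strand): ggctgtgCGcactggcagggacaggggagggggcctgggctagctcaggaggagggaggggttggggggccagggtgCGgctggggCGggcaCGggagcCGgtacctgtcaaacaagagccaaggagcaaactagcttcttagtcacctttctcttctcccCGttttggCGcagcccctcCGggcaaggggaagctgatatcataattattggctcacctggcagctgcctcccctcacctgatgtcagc
NMB (chr15:84658200-84658449, - strand): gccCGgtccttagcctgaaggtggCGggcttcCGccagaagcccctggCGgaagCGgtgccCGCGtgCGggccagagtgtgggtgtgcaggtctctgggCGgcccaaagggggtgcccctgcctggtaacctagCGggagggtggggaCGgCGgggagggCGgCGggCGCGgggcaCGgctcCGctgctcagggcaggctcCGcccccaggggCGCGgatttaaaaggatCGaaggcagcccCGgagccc

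MR1, which presents microbial vitamin B metabolites to T cells, had no CG dinucleotide in its window, CIDEC, a lipid droplet protein, and TRIM16 had 2 each, ASCL5 had 4 and FOXN1 had 8. NMB, the gene of the peptide neuromedin B, had 23. The 24 windows were also searched on both strands for short motifs. GGGCGG, the core bound by SP and KLF factors, was present in 10 of the 24 (41.7%, interval 22.1 to 63.4). It was in 64.3% (58.5 to 69.9) of the windows under gained peaks off H4K16ac and in 56.0% of all promoters. Promoters with no butyrate H3K9ac had it in 40.3% (39.2 to 41.4), so the low share is not particular to members. CCAAT was present in 6 of the 24 (25%), against 24.8% off H4K16ac and 34.4% of all. TGACTCA, the AP-1 site, was in none of the 24 (interval to 14.2%) and in 3.17% of all. GGGCGG itself holds a CG, so its count is not separate from the CG count. Such matches describe letters in these windows only.

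Members lay mostly inside genes and between them. A promoter member reaches within 1 kb of a gene start, a gene body member overlaps a protein-coding gene elsewhere, and the rest are intergenic. Gene bodies held 3583 members (53.6%), intergenic sequence 2671 (40.0%) and promoters 429 (6.42%). The gained peaks off H4K16ac were split 57.9%, 34.6% and 7.49%, and the 73586 control H4K16ac peaks 68.7%, 25.8% and 5.50%. Members were thus more often intergenic than the gained peaks off H4K16ac and than the control H4K16ac peaks. Read the other way, 12.4% (12.0 to 12.9) of gained intergenic peaks lay on H4K16ac, 10.2% (9.90 to 10.5) of the 35079 in gene bodies and 9.52% (8.68 to 10.4) of the 4506 at promoters. H3K9ac peaks present in both conditions overlapped H4K16ac more often in all 3 locations, in 30.1%, 18.1% and 21.9%, and in 22.1% (21.5 to 22.7) of 18267 in all.

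**Figure D1:**
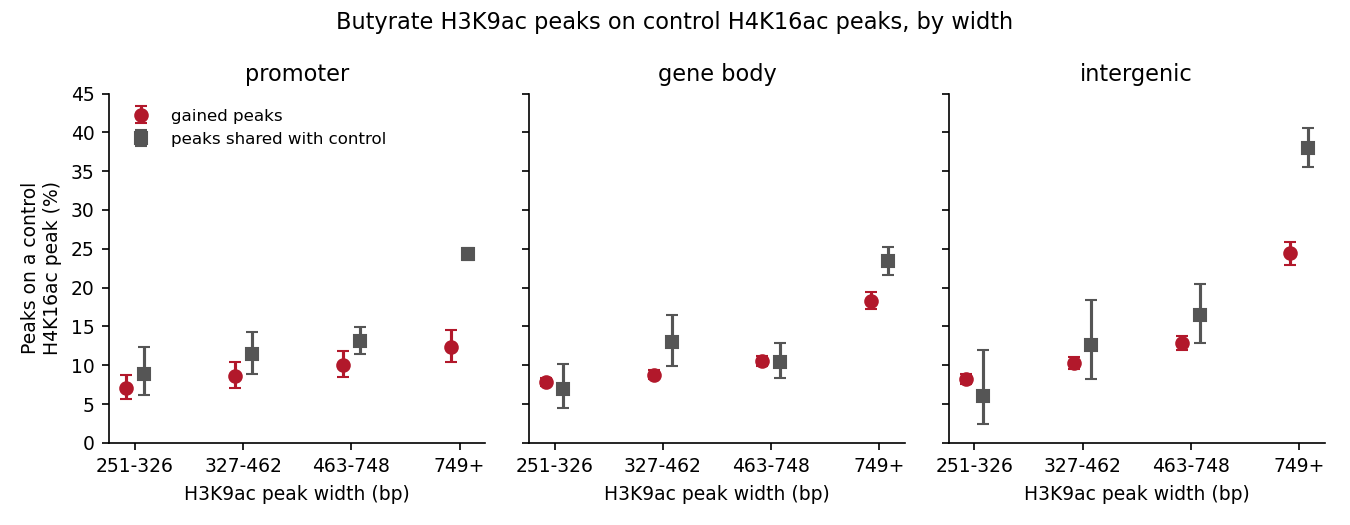
Share of butyrate H3K9ac peaks that overlap a control H4K16ac peak (y axis, %) in 4 classes of peak width (x axis, bp) at promoters, in gene bodies and between genes, for gained peaks (circles) and peaks shared with control (squares), with exact 95% intervals. In gene bodies the share of gained peaks goes from 7.86% in the narrowest class to 18.3% in the widest.

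The share on H4K16ac went with the width of the peak. In gene bodies 7.86% (7.37 to 8.36) of gained peaks of 251 to 326 bp lay on H4K16ac, 8.77% of those of 327 to 462 bp, 10.5% of those of 463 to 748 bp, and 18.3% (17.2 to 19.4) of those of 749 bp or more. Shared peaks were mostly wide, with a median width of 1280 bp against 487 bp for members. In gene bodies 6.94% (4.49 to 10.1), 13.0% (9.94 to 16.5), 10.4% (8.31 to 12.9) and 23.4% (21.6 to 25.2) of the shared peaks in the 4 classes lay on H4K16ac. Shared peaks were thus above gained peaks in the second and the widest class and not in the other two, as the plot of shares by width shows.

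The butyrate H4K16ac library played no part in choosing the members. In gene bodies 11.1% (10.1 to 12.2, 399 of 3583) of the members had a butyrate H4K16ac peak, against 4.19% (3.98 to 4.42, 1321 of 31496) of gained peaks off control H4K16ac. At promoters the shares were 14.5% (11.3 to 18.1) and 2.77% (2.29 to 3.32), and between genes 14.0% (12.7 to 15.3) and 4.79% (4.49 to 5.11). Over all gained peaks 5.19% had such a peak. H4K16ac was thus listed after butyrate 2.65 times as often at gene body members as at the comparison peaks, while most of these members had no listed H4K16ac peak after treatment. H3K9ac peaks shared with control showed a difference in the same direction, with butyrate H4K16ac at 10.6% (9.65 to 11.6) of those on control H4K16ac and 2.82% (2.55 to 3.10) of those off it, all locations together.

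This difference was present in every class of 2 measures that also set how often peaks are called. Over the 4 width classes in gene bodies, butyrate H4K16ac was at 6.84%, 9.70%, 10.7% and 17.3% of members and at 3.01%, 4.02%, 4.38% and 7.38% of the comparison peaks. The local background, the number of H3K9ac fragments expected at the summit, was higher at members (median 3.87 against 3.64 fragments). Over its 4 classes the shares were 6.08%, 8.00%, 14.9% and 15.6% for members and 2.19%, 3.71%, 5.34% and 7.11% for the comparison peaks. Both groups therefore had more butyrate H4K16ac where the background was high. Members were also above the other 11291 gained peaks of the same genes, of which 5.46% (5.05 to 5.90) had butyrate H4K16ac.

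**Figure D2:**
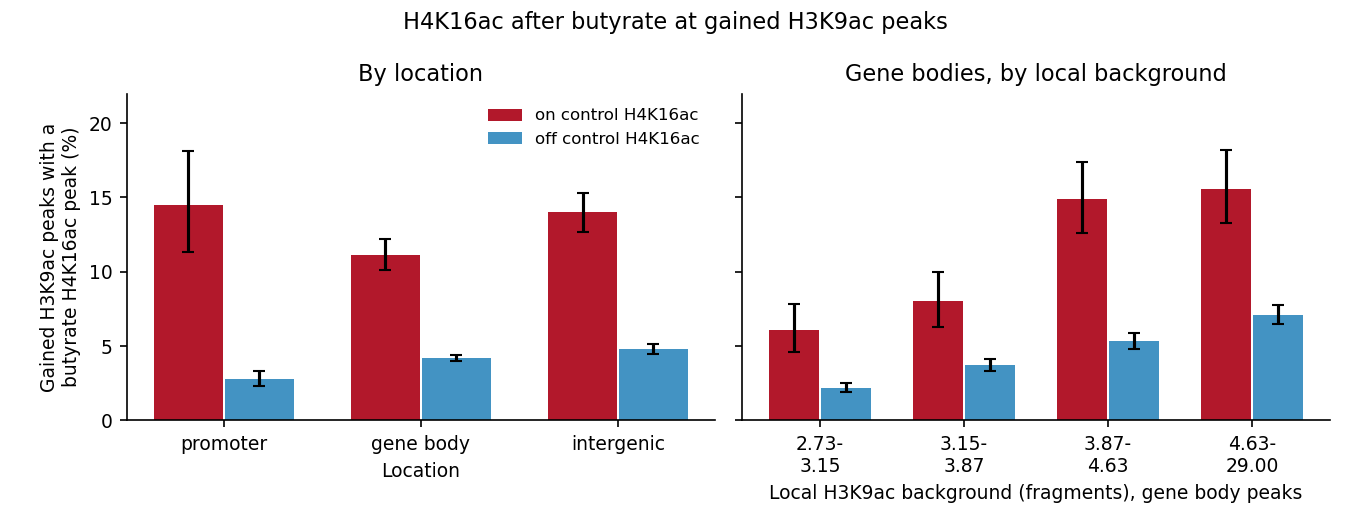
Share of gained H3K9ac peaks that overlap a butyrate H4K16ac peak (y axis, %), on control H4K16ac sites (red) and off them (blue), by location (left) and, for gene bodies, by class of local H3K9ac background in fragments (right), with exact 95% intervals. The red bar is the higher in all 7 pairs, with 11.1% against 4.19% over all gene body peaks.

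Seen from the H4K16ac side, 6.15% of the 73586 control H4K16ac peaks were met by a butyrate H4K16ac peak. Of the 6782 control peaks under a member 12.5% (11.8 to 13.3) were kept, against 6.46% (5.80 to 7.18) of those under an H3K9ac peak shared with control and 5.48% (5.30 to 5.66) of those with no butyrate H3K9ac. In gene bodies the 3 shares were 10.9% (9.93 to 12.0), 8.95% (7.48 to 10.6) and 4.19% (4.01 to 4.38). There the intervals of the first and second overlap. Stronger control peaks were kept more often, and within each class of strength those under a member were kept more often than those with no H3K9ac. At −log10 q of 0.5 to 1 the gene body shares were 9.13% (7.54 to 10.9) and 3.90% (3.62 to 4.19), and from 3 to 10 they were 19.6% (12.4 to 28.6) and 9.86% (7.0 to 13.4). The intervals of that last pair overlap.

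Strong control H4K16ac peaks also lay under a member more often. The share of gene body H4K16ac peaks lying under a member was 5.96% (5.63 to 6.30) at a −log10 q of 0.5 to 1, then 6.46%, 7.95% and 10.8%, and 19.6% (16.3 to 23.3) at 3 to 10. Of the H4K16ac peaks under members 48.5% (47.3 to 49.7) had a q of 0.05 or less, against 37.7% (37.3 to 38.1) of those without butyrate H3K9ac and 52.3% (50.9 to 53.7) of those under H3K9ac peaks shared with control. In fragments both were low, with a median of 9 at the H4K16ac summit. A control H4K16ac peak under a member was wider than one with no H3K9ac, at a median of 416 against 348 bp. It was about as wide as one under a shared H3K9ac peak (408 bp). Wider peaks meet a 1 bp overlap more often. Neither these shares by strength nor the shares kept with butyrate were computed by H4K16ac width, so the part of width was not tested.

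As H3K9ac peaks, the members were wider than the comparison peaks and barely taller. In gene bodies the median width was 462 bp (quartiles 326 to 748) for members and 392 bp (298 to 560) off H4K16ac. A wider peak meets the 1 bp rule more often, so this difference in width is not independent of the rule. Gained gene body peaks off H4K16ac but within 500 bp of it also had a median width of 392 bp. The fold is the authors' ratio of summit fragments to local background, with a constant added to both. Its median was 3.24 (2.80 to 3.79) and 3.18 (2.79 to 3.65). The summit held a median of 15 and 14 fragments, and the median −log10 q was 3.25 and 2.92. These quartiles overlap almost entirely, and with the comparison peaks weighted to the width classes of the members the median fold turned the other way, 3.24 for members and 3.26 off H4K16ac. Peaks shared with control were of another size, with a median fold of 5.39 and 26 fragments over all locations.

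The distance between the summits of the 2 marks was measured within each member. The rule makes the peaks overlap, so their widths limit this distance. No distance expected from the widths was computed, so the values do not show an offset. Where a merged peak had several summits the strongest was taken, and of several H4K16ac peaks the strongest. The H4K16ac summit lay a median of 230 bp (quartiles 98 to 426) from the H3K9ac summit. It was within 150 bp, about the length of DNA on 1 nucleosome, in 35.7% (34.6 to 36.9) of members and more than 500 bp away in 19.3% (18.3 to 20.2). The number of members per 50 bp was highest at 0 to 49 bp, with 877, and lower at each longer distance to 849 bp.

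**Figure D3:**
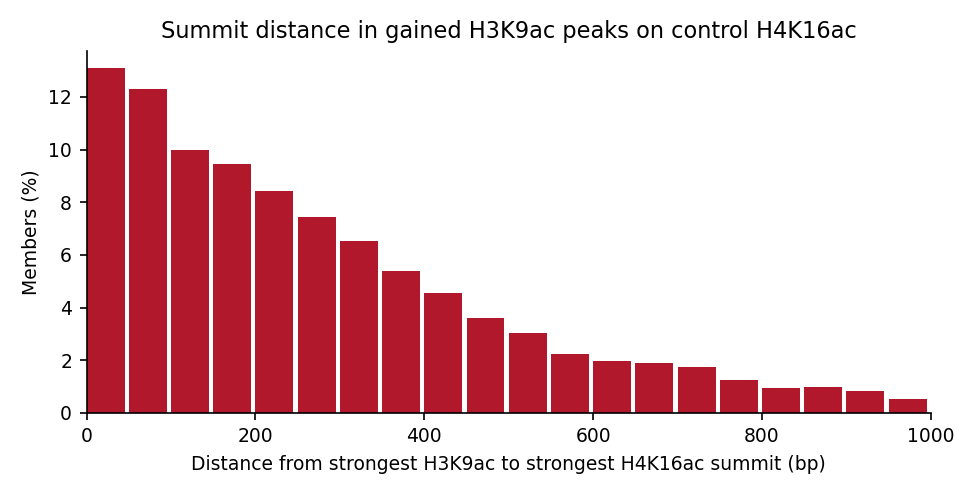
Distance from the H3K9ac summit of a member to the strongest summit of the overlapping control H4K16ac peaks (x axis, bp, in steps of 50) and the share of the 6683 members at that distance (y axis, %). The first step holds 13.1% of members, and distances of 1000 bp and more are not drawn.

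Around the edge of the rule the regions were alike. At the edge, 472 members shared under 50 bp with H4K16ac and 445 gained peaks stopped within 50 bp of it, and their median −log10 q was 2.83 and 2.86. Butyrate H4K16ac was at 9.75% (7.22 to 12.8) of the former and 8.76% (6.31 to 11.8) of the latter. Members sharing 200 bp or more, 4561 in number, had a median −log10 q of 3.75 and butyrate H4K16ac in 13.7% (12.7 to 14.8).

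The surroundings of members also held both marks. A gene body member had a median of 5 control H4K16ac peaks within 10 kb (its own included), against 1 for gained peaks off H4K16ac. The rule gives each member at least 1 of these, and gained gene body peaks off H4K16ac but within 500 bp of it had a median of 4 and lay a median of 8840 bp from control H3K9ac. The nearest control H3K9ac peak was a median of 8080 bp away (quartiles 2190 to 25000), against 11000 bp (2940 to 32100), and 40.5% (38.9 to 42.1) of members had one within 5 kb, against 34.0% (33.5 to 34.5). Of all members 3075 (46.0%) lay within 5 kb of another member. Gene body members were less often in first introns than the comparison peaks. First introns held 21.8% (20.4 to 23.2) of gene body members and 27.1% (26.6 to 27.6) of the comparison peaks, and inner introns 48.1% (46.5 to 49.8) and 42.7% (42.2 to 43.3). The median position was 48.4% of the gene length from the start, against 43.8%. In bp the direction depended on the comparison. The nearest start of any gene was a median of 14800 bp from these members, against 12300 bp for all gained peaks off H4K16ac in gene bodies and 19000 bp for the other gained peaks of the genes that hold members.

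Among 19974 protein-coding genes 2047 (10.2%) had at least 1 member in the body, which is 22.2% of the 9239 genes with any gained gene body peak. Of those 2047, 1361 had a single member. Genes with a member more often had an H3K9ac promoter before treatment. A control H3K9ac peak was at the start of 78.3% (76.4 to 80.1) of genes with a member, 71.4% (70.3 to 72.5) of genes with gained peaks but no member and 57.1% (56.4 to 57.8) of all genes with a known start. Control H4K16ac was at the start of 38.6% (36.5 to 40.8) of the first and 23.7% (22.7 to 24.7) of the second. The rule places a gene in the first group by a control H4K16ac peak in its body, from the same library. This H4K16ac difference is therefore not independent of the rule. In genes with a control H3K9ac promoter 11.0% (10.6 to 11.4) of gained gene body peaks were members, and in genes without one 8.16% (7.60 to 8.75).

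The 10 genes with most members held 13 to 24 each. CUX1, a homeodomain transcription factor, had 24 members among 74 gained peaks in its body (32.4%), and 6 of the 24 had butyrate H4K16ac. RAP1GAP2, a GTPase activator for Rap1, had 23 of 62, CAMTA1, a calmodulin-binding transcription activator, 21 of 65, and SSBP3, a partner of LIM-domain transcription complexes, 20 of 36 (55.6%). RPTOR, the scaffold of mTOR complex 1, had 17 of 33 (51.5%), and none of its 17 had butyrate H4K16ac. CRTC3, a coactivator of CREB, had 16 of 29, the integrin subunit gene ITGB5 15 of 34, the growth factor receptor gene PDGFRB 15 of 17, MGLL, which cleaves monoacylglycerols, 14 of 38, and the zinc-finger gene GLIS1 13 of 29. HS1BP3 also had 13 of 29, a tie for the last place. All 10 were above the 10.2% of gained gene body peaks that were members in general, which follows in part from ranking genes by members. RAP1GAP2, PDGFRB and GLIS1 had no control H3K9ac at the promoter and the other 7 did.

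Per length, short genes led. MMP11, a stromal matrix metalloproteinase, had 5 members among 6 gained peaks in 11.5 kb, or 43.6 per 100 kb, and PDGFRB had 35.7 per 100 kb. All 6 gained peaks of SH2D6 were members, as were 9 of 11 in FOXN1, the master regulator of thymic epithelium, and 8 of 13 in HDAC11, the class IV histone deacetylase. KRT80, an epithelial keratin, had 7 of 14, OLFML2A 8 of 14 and PGAP2, which remodels GPI anchors, 6 of 7. PGAP2 stood apart in background. Its members held 49 to 57 fragments on a local background of 21.3 to 29.0, and their fold was 1.75 to 2.29, below the lower quartile of gene body members.

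Runs of members could be followed along single genes. In PDGFRB (chr5:150113839-150155845, minus strand) 15 members ran over 31.6 kb from intron 1 to the 3′ end, where 16 gained peaks lay in all. They had −log10 q of 1.83 to 11.8 (median 3.35) and 13 to 31 fragments, and 3 had butyrate H4K16ac. The strongest, chr5:150138994-150139371 in intron 1, held 31 fragments on a background of 5.09 over an H4K16ac peak of 14 fragments on 2.45. In CRTC3 (chr15:90529923-90645345, plus strand) 12 members filled 19.7 kb of introns 2 and 3, every gained peak in that stretch was a member, and neither control H3K9ac nor butyrate H4K16ac was listed there. The 16 CRTC3 members had −log10 q of 1.52 to 13.4 and 10 to 28 fragments. FOXN1 and the sequence just past it carried 13 members over 32.6 kb, with 1 control H3K9ac peak in the stretch.

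**Figure D4:**
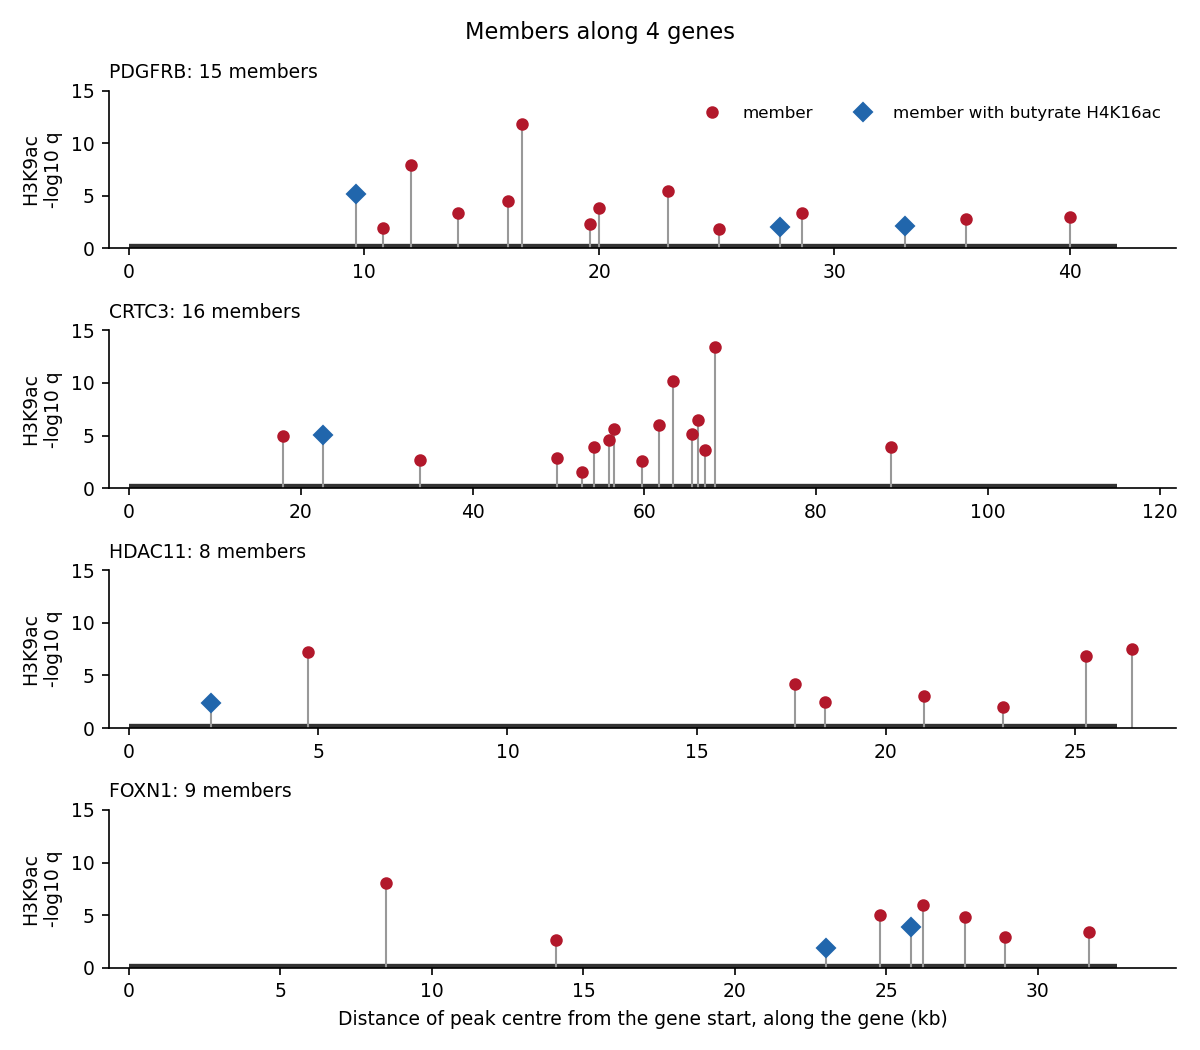
Members along PDGFRB, CRTC3, HDAC11 and FOXN1, with the butyrate H3K9ac −log10 q on the y axis. The x axis gives the distance in kb from the gene start to the strongest H3K9ac summit of the member, labelled there as peak centre. The gene is a black bar, and members that also have butyrate H4K16ac are blue diamonds. The 12 neighbouring members of CRTC3 stand between 49.8 and 68.2 kb, and the last HDAC11 member has its summit just past the gene end.

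The 8 strongest members by H3K9ac were 862 to 3342 bp wide, against a median of 487 bp over all members, and lay 610 to 64702 bp from control H3K9ac, 3 of them closer than the median of 6740 bp. The highest −log10 q, 23.7, was at the intergenic chr1:153708915-153710569, with 38 fragments on a background of 3.11 (fold 9.50), 15452 bp from control H3K9ac. Next came the promoter of LGALS9C (21.7), the intergenic chr6:43989243-43992223 (20.6) and intron 14 of HDAC5 (20.5, fold 9.12, 33 fragments on 2.73). HDAC5 is a class IIa histone deacetylase. LGALS9C has near-identical copies, so its reads may belong to another copy. GLI2, a Hedgehog transcription factor, CROCC, the ciliary rootlet protein, the intergenic chr1:204419390-204421628 and ABHD12 followed at 19.9, 19.4, 19.2 and 18.6. None of these 8 had butyrate H4K16ac, against 12.5% of all members, and 8 regions are too few to be told from that share. At 5 of them the listed H4K16ac peak had a −log10 q of 1.60 or less, where the median over all members was 1.31.

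Ranking by control H4K16ac gave other regions. The highest H4K16ac −log10 q under a member, 7.73, was in NUP93, a nuclear pore gene (chr16:56849186-56851466), with 21 H4K16ac fragments on 2.06 and 31 H3K9ac fragments on 4.27. An intergenic member at chr2:232446381-232448057 had 7.03, with its H3K9ac and H4K16ac summits 28 bp apart. Over S100A1 and S100A13, genes of calcium-binding proteins, 4 members lay on 1 H4K16ac peak (chr1:153627699-153632228, −log10 q 6.80), and 2 of the 4 had butyrate H4K16ac. A member at the SCRN2 promoter had 6.36 and 1 in intron 1 of BIRC3 6.18, the latter on an H4K16ac background of 11.7.

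At promoters 413 genes (2.24% of 18461 with a known start) had a member. The strongest after LGALS9C were at NUMBL (17.3), a Numb relative in Notch signalling, PSMB6 (15.4), a catalytic proteasome subunit, C1QL1 (15.2), SLC12A3 (14.4), the thiazide-sensitive cotransporter, and KRT17 (14.0), with −log10 q in parentheses. NMB and LMNA, the gene of the nuclear lamins A and C, both had 13.3, and a member between MYL11 and TBC1D10B had 12.6. Control H3K9ac lay close to several of them, at 151 bp for PSMB6, 198 bp for LMNA, 208 bp for NUMBL, 475 bp for KRT17 and 704 bp for MYL11. The nearest control H3K9ac to the C1QL1 member was 20379 bp away. Over all promoter members the median distance to control H3K9ac was 687 bp (quartiles 253 to 4130), against 4490 bp (375 to 31100) at promoters off H4K16ac.

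Of the 5 members with the strongest butyrate H4K16ac, 4 had an H3K9ac −log10 q of 2.72 to 4.54 and the other, between genes on chromosome 22, had 8.18. A member in intron 17 of RAP1GAP2 had a butyrate H4K16ac −log10 q of 2.37 and an H3K9ac −log10 q of 2.74, with 13 fragments on 3.49. It was followed by the promoter of MRPL24, a mitochondrial ribosomal protein gene (2.27), an intron of PSORS1C1 and CDSN (1.98), the intergenic chr22:46124530-46125056 (1.91) and intron 1 of ATP13A3 (1.88).

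Among genes of the acetylation machinery, the peak share of deacetylases was above the background share of 10.2%. In 18 deacetylase genes 19 of 86 gained gene body peaks (22.1%, 13.9 to 32.3) were members, in 4 genes: HDAC11 with 8, HDAC5 and HDAC4 with 5 each, and SIRT2, a sirtuin that acts on H4K16ac, with 1. The interval takes peaks of 1 gene as independent, and HDAC11 alone held 8 of its 13 gained peaks as members. By gene, 4 of the 14 deacetylase genes with a gained gene body peak held a member, against 22.2% of all such genes. In the 14 genes of KAT8 and its complexes 10 of 52 (19.2%, 9.63 to 32.5) were, with 4 in KANSL3, 4 in PHF20 and both gained peaks of KAT8 itself. The interval of the KAT8 list takes in the background. Other acetyltransferases and readers had 3 of 67 (4.48%, 0.933 to 12.5), 1 each in YEATS2, MLLT1 and BRD9. The corepressor genes had 11 of 211 (5.21%, 2.63 to 9.14), 7 of them in GSE1 and 1 in CHD4.

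Genes that define granulosa cells had none in their bodies. In 25 genes of granulosa identity 0 of 57 gained gene body peaks were members, which allows a share of up to 6.27%, although 16 of the 25 had a gained peak. AMHR2, the receptor of anti-Müllerian hormone, had 2 promoter members, 1 with butyrate H4K16ac. Steroid and cholesterol genes had 17 of 162 (10.5%, 6.23 to 16.3), in 9 of 29 genes (31.0%), against 10.2% of all protein-coding genes. These genes were longer, with a median of 58.9 kb against 24.2 kb. Of the 21 with a gained gene body peak 9 held a member, against 22.2% of all such genes. ADCY9, an adenylyl cyclase, held 5, and SCARB1, the receptor that imports cholesterol from HDL, 3, the strongest with a −log10 q of 10.1 (22 fragments on 2.90) in intron 1. PDE4D and SCAP held 2 each. Genes of PPAR and fatty acid metabolism had 5 of 184 (2.72%, 0.888 to 6.23), with 2 in PPARGC1B and 1 of 40 gained peaks in RXRA, and genes of TGF-beta, activin and BMP signalling 5 of 167 (2.99%, 0.979 to 6.85), with 2 in TGFBR3 and 1 each in LTBP2, SMAD3 and BMP6. Both peak shares were below the 10.2% of all gained gene body peaks. By gene, 13.8% of the PPAR list and 14.3% of the TGF-beta list held a member, against 10.2% of all protein-coding genes. The genes of these lists were longer, with medians of 81.5 and 81.3 kb against 24.2 kb. Of those with a gained gene body peak, 4 of 20 and 4 of 18 held a member, against 22.2% of all such genes.

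Growth and adhesion genes ranged widely. Insulin and IGF signalling had 30 of 111 (27.0%, 19.0 to 36.3), but RPTOR held 17 of the 30 and IGF1R 11, so the list rests on 2 of its 24 genes. Actin and adhesion genes had 42 of 346 (12.1%, 8.89 to 16.1) in 15 of 36 genes, with 15 in ITGB5 and 3 each in TRIO and TNS3. Of the 31 with a gained gene body peak 15 held a member, against 22.2% of all such genes. The genes of this list were long, with a median of 150 kb against 24.2 kb over all genes. The Hippo pathway had 20 of 150 (13.3%, 8.34 to 19.8), 11 of them in WWC1, which activates the LATS kinases, and 2 each in TEAD3 and PTPN14. Its 4 members in YAP1, the pathway's coactivator, belong to the high-background stretch of chromosome 11 described below. Apoptosis genes had 6 of 48 (12.5%), with 3 in BIRC3 in that same stretch and 2 in BCL2L1. Inflammation genes had 5 of 41 (12.2%), all in STAT3, cell cycle genes 3 of 50 (6.00%), with 2 in CCND3 and 1 in CCNB1, elongation and splicing genes 4 of 91 (4.40%), with 3 in ELL, and AP-1 and immediate early genes 1 of 20, in BTG2. Ribosomal protein genes, which are short, had 0 of 29, which allows up to 11.9%, and members at the promoters of RPL19 and RPL32.

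Marker genes of other cell types held members as well. PAX8, a transcription factor of kidney, thyroid and Müllerian epithelium, had 8 of its 10 gained peaks as members, 4 with butyrate H4K16ac, and carried most of the 9 of 24 (37.5%, 18.8 to 59.4) in epithelial genes. ZP3, the zona pellucida gene of the oocyte, had 6 of 12, the strongest with a −log10 q of 15.6 (32 fragments on 3.88) and butyrate H4K16ac, which gave the oocyte genes 6 of 13 (46.2%, 19.2 to 74.9). Endothelial genes had 5 of 23 (21.7%, 7.46 to 43.7), 3 in PECAM1, and blood genes 3 of 15 (20.0%, 4.33 to 48.1), 2 in CSF1R, which lies beside PDGFRB, and 1 in SPI1. Neuronal genes had 0 of 35 (up to 10.0%) and theca and stroma genes 0 of 12 (up to 26.5%). Peak lists hold no expression, so these counts say where acetylation was listed, not whether a gene was on.

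Chromosomes differed more than their intervals. On chromosome 4 only 18 of 611 gained peaks were members (2.95%, 1.76 to 4.62), on chromosome 14 33 of 836 (3.95%, 2.73 to 5.50) and on chromosome 19, the densest in gained peaks, 269 of 4751 (5.66%, 5.02 to 6.36). On chromosome 17 the share was 13.2% (12.3 to 14.1) and on chromosome 6 15.3% (13.9 to 16.8). Chromosomes 4 and 14 also had the fewest H4K16ac peaks per Mb, at 4.98 and 8.04 against 56.4 on chromosome 17, and the lowest median H4K16ac background, at 1.73 and 1.63 fragments. Over the 23 chromosomes the share went with the median local background of the control H4K16ac peaks (Pearson r 0.74, Spearman rho 0.72), with the number of these peaks (0.70 and 0.85), with H4K16ac peaks per Mb (0.68 and 0.65) and, less, with the background of gained H3K9ac peaks (0.57 and 0.53) and the number of gained peaks per Mb (0.12 and 0.36). These are descriptions over chromosomes of the same libraries, in which peak number and background share 1 sequencing depth. The part of peak density and background in this pattern was not tested.

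**Figure D5:**
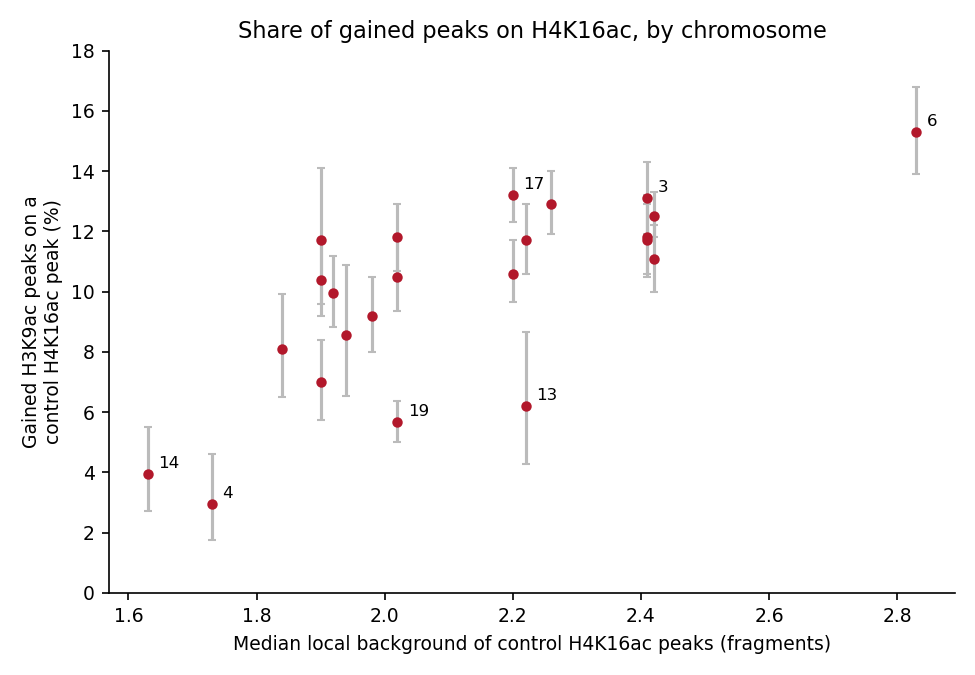
Share of gained H3K9ac peaks on a control H4K16ac peak (y axis, %, with exact 95% intervals) against the median local background of the control H4K16ac peaks in fragments (x axis), 1 point per chromosome, some with their number. Chromosomes 14 and 4 are at the lower left, at 3.95% and 2.95%, and chromosome 6 is at the upper right, at 15.3%.

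A small group of members lay where the background itself was high. A local background of 10 fragments or more was found at 68 members (1.02%) and 188 gained peaks off H4K16ac (0.346%), so that 26.6% (21.3 to 32.4) of such gained peaks were members. On chromosome 11, 24 of the 68 lay between positions 3638929 and 3853683, over ART5, NUP98, PGAP2 and RHOG, with a background of 18.4 to 29.0, and 18 lay between 102108221 and 102322894, over YAP1 and BIRC3, with 13.5 to 20.9. The H4K16ac library had a high background there too, of 12.7 to 20.8 fragments at the members in PGAP2. Without all peaks of background 10 or more, butyrate H4K16ac was at 11.0% (9.99 to 12.1) of gene body members and 4.15% (3.93 to 4.37) of the comparison peaks, nearly the values with them.

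A few hairpins of miRNA genes were under members. Of 1558 hairpins listed by RefSeq, 6 touched a member, 72 a gained peak off H4K16ac and 160 a shared peak. Members thus made up 7.69% (2.88 to 16) of the 78 under gained peaks, an interval that includes the 10.9% of all gained peaks. The strongest member among the 6, with a −log10 q of 14.7 and 33 fragments on 4.51, covers MIR4645 whole and had butyrate H4K16ac. The others were at MIR6859-1 (6.42), which has near-identical copies, MIR141 (2.85), an epithelial miRNA, MIR3165 (1.95) and the neighbours MIR144 and MIR4732 under 1 member (1.67).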

How the data were processed

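Peaks of H3K9ac, H4K16ac and IgG in KGN cells were analysed, and the 2 input samples were not analysed here. CASAVA 1.7 and MACS2 2.1.0 were used, per the submitters' processing notes, which name hg19 (GRCh37) as the build. Neither the aligner nor the duplicate filter is given in the sources used here. Gene starts in the deposited lists lay a median of 57 bp from RefSeq GRCh38.p14 starts of the same symbol (98.8% of 10963 genes within 100 kb), so coordinates are read as GRCh38 and printed with 1 added to the start. The fold is the authors' ratio of summit pileup to local background, read with the same constant added to both. It is therefore lower than fragments divided by background. In the deposited lists p and q stand as −log10 values. The score column the authors deposited was not used. All of these are the authors' own values per peak.

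Rows sharing bases were merged, on chromosomes 1 to 22 and X. Fragments at the summit and local background were recovered from fold and p, which worked for 100% of peaks in 3 libraries (tolerance 0.002 in −log10 p). Depth follows from the lowest background, the fragment length and an effective genome of 2700000000 bp. Starts came from RefSeq (15812 genes) or the authors' columns, and 1513 of 19974 protein-coding genes had none, so a peak at their start counts as gene body or intergenic. Intervals are exact 95% intervals over peaks. Overlap, merging and recovery were tested on simulated data. Python 3.11.15, numpy 2.4.6, pandas 2.3.3, scipy 1.17.1 and matplotlib 3.10.9 were used.

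The members and 23 gene lists (6 of them cell type markers) were chosen with earlier results of these data known. Genes named are the 10 with most members in the body, the 8 with most per 100 kb among those with at least 5, up to 4 per list, and those at the 8 members highest in H3K9ac, the 8 highest in control H4K16ac, the 5 highest in butyrate H4K16ac, the 3 intergenic members highest in H3K9ac and the 10 promoter genes highest in H3K9ac. Genes with a promoter member in a list, those shown by sequence, granulosa genes with a control H3K9ac promoter, genes of high background and miRNA genes were named after their values were seen. Alternatives were limits on q, fold, overlap and distance, equal numbers of peaks, another promoter window, and weighting by width or background.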

Additional observations from a re-analysis of the deposited data

How the results depend on the processing

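No paired analysis was possible because each condition and antibody has 1 library, and for the same reason no replicate could be left out. Alternatives with weighting by local background, or without peaks of background 10 or more, were chosen after seeing the data. Of 86 values under an alternative, 37 stayed within the counting interval of the value reported (for counts, within 1.5 times) and 49 did not. Butyrate H4K16ac was more frequent at gene body members than off H4K16ac in all 11 alternatives, by 2.19 to 3.66 times against the reported 2.65. The causes of the moves were not tested beyond the smaller sets that each limit leaves.

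With control H4K16ac at a q of 0.05 or less there were 3359 members (5.50% of gained peaks, 5.00% in gene bodies) in 1105 genes, with a median width of 482 bp, and 4.53% of the gene body comparison peaks had butyrate H4K16ac. An overlap of at least 50% of the narrower peak gave 7.92% of gained peaks, 7.27% in gene bodies, a median width of 494 bp and a median fold of 3.29. No control H3K9ac within 1 kb gave 10.5% of gained peaks, with comparison peaks of 387 bp and fold 3.17. With butyrate H3K9ac limited to a −log10 q of at least 5 there were 1766 members (14.8%, in gene bodies 13.9%) in 581 genes, butyrate H4K16ac at 14.2% against 4.47%, widths of 896 against 610 bp and folds of 4.47 against 4.36. A fold of at least 5 left 437 members (16.5%, in gene bodies 17.2%) in 177 genes, 3.95% of comparison peaks with butyrate H4K16ac, widths of 1190 against 824 bp and folds of 5.50 against 5.45. Equal numbers of H3K9ac peaks in both conditions (22215) gave 1256 members (16.2%, in gene bodies 15.6%) in 443 genes, butyrate H4K16ac at 14.8% of members, widths of 1040 against 694 bp and folds of 4.73 against 4.68. Weighting to the width classes of members gave 11.3% of gene body peaks on H4K16ac, 4.69% of comparison peaks with butyrate H4K16ac, a width of 462 bp and a fold of 3.26. Weighting to background classes gave 10.6%, 4.58% and a fold of 3.12, and weighting to both 5.07%. The promoter window of 2.5 kb and the removal of high background left all values within those limits. Depth limits the H4K16ac lists, in which the median peak under a member held 9 fragments, and the depth with butyrate is unknown.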
